A study of Mus musculus with 6 samples.

Results

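Chemokines and secreted cytokines were followed in 47 of the 19939 genes measured in mouse embryonic fibroblasts, connective tissue cells cultured from embryos. The genes were chosen by name: every gene whose platform symbol begins with Ccl or Cxcl and a digit, Cx3cl1, and 14 cytokine genes (Il6, Il1a, Il1b, Il11, Il33, Il34, Lif, Csf1, Csf2, Csf3, Tslp, Ctf1, Tnf and Mif). This gave 19 CC chemokines, 13 CXC chemokines, Cx3cl1 and the 14 cytokines, each through 1 probe set. The rule used names alone, but it was set with earlier results of these data known.

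The arrays compared a tetraploid fibroblast line, described in the labels as carrying abnormal DNA content and in the series title as transformed, with a diploid line that the labels call normal (3 samples each). Both lines were grown in serum-containing medium and taken before full confluence, with no stimulus named in the labels. With 1 line for each ploidy, effects of ploidy, of transformation and of the line itself cannot be told apart, and the labels do not say whether a line's samples came from separate cultures. The p-values measure only the spread between these samples, which may be technical. All 12 fibroblast markers examined lay above background on all diploid arrays and 11 of them on all tetraploid arrays, the exception being Lum. Of the 12, 5 fell in the tetraploid line at a limma adjusted p below 0.05 (Col1a1, Lum, Fn1, Sparc and Postn; 41.7%, beside 7.75% of all genes). The other seven did not pass, and the median difference of the 12 was -0.85 on the log2 scale. Because the RNA came from whole cultures, fewer cells of a type and less RNA per cell cannot be told apart.

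Chemokines are small secreted proteins that draw leukocytes along a gradient by binding receptors with a serpentine membrane fold, and they are grouped by the spacing of their first cysteines into CC, CXC and CX3C families. Fibroblasts release many of them, together with cytokines of the IL-6 family and the macrophage growth factor CSF1, after signals that activate the transcription factors NF-kB and AP-1. IL-6, IL-11, LIF and cardiotrophin (Ctf1) all signal through the shared receptor chain gp130 (Il6st).

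Most of the genes were weakly expressed. A background level was set on each array from 1027 olfactory receptor genes, which are mostly silent outside sensory tissue, as their 95th percentile. It lay between 7.01 and 7.41 on the log2 scale. Only 14 of the 47 genes (29.8%) lay above it on all 3 arrays of at least 1 line, compared with 53.3% of all genes and 3.99% of the olfactory receptor genes. All 14 were above it on every diploid array, and 8 also on every tetraploid array. The 8 above background on all 6 arrays were Cxcl12, Cxcl3, Cx3cl1, Ccl2, Ccl7, Ccl28, Csf1 and Mif. A further 19 genes lay at or below background on all 6 arrays (40.4%, compared with 35.4% of all genes).

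The main question was which of these genes differ between the lines. In the tetraploid line, 10 of the 47 fell and 1 rose (limma adjusted p below 0.05), while 36 did not pass the test. Those that fell were Cxcl14, Il6, Cxcl5, Cxcl2, Ccl20, Ccl3, Ccl8, Il11, Cxcl16 and Ccl7, and Il34 rose. The share called was 23.4%, beside 13.8% of all genes. The share that fell was 21.3%, beside 7.75% of all genes, and the share that rose was 2.13%, beside 6.08%. In 19 of the 47 (40.4%) the values of the lines did not overlap, a share near the 37.3% found over all genes. The median difference, tetraploid minus diploid, was -0.28 over the 47 genes and 0.07 over all genes.

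Much of this rested on values below background. Among the 11 called genes, 4 (Cxcl14, Cxcl16, Il6 and Ccl7) lay above background on all arrays of a line, and Ccl7 did so on all 6. When every value was raised to the background level of its array before the fit, 5 genes were lower in the tetraploid line (Cxcl14, Ccl7, Cxcl16, Cxcl1 and Lif) and 1 was higher (Cxcl12). That is 12.8% of the 47, beside 19.8% of all genes called in that fit (9.97% lower and 9.83% higher). Both fits called 3 genes: Cxcl14, Cxcl16 and Ccl7. Raising changed no value of Ccl7 or Cxcl12. The share of these genes called was above that of all genes with the deposited values and below it with raised values. The raised fit could not call a gene at or below background on all 6 arrays, as were 40.4% of the 47 and 35.4% of all genes. Fewer of the 47 lay above background on all arrays of a line (29.8%, beside 53.3% of all genes). How far this low level sets the share called with raised values was not tested.

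**Figure D1:**
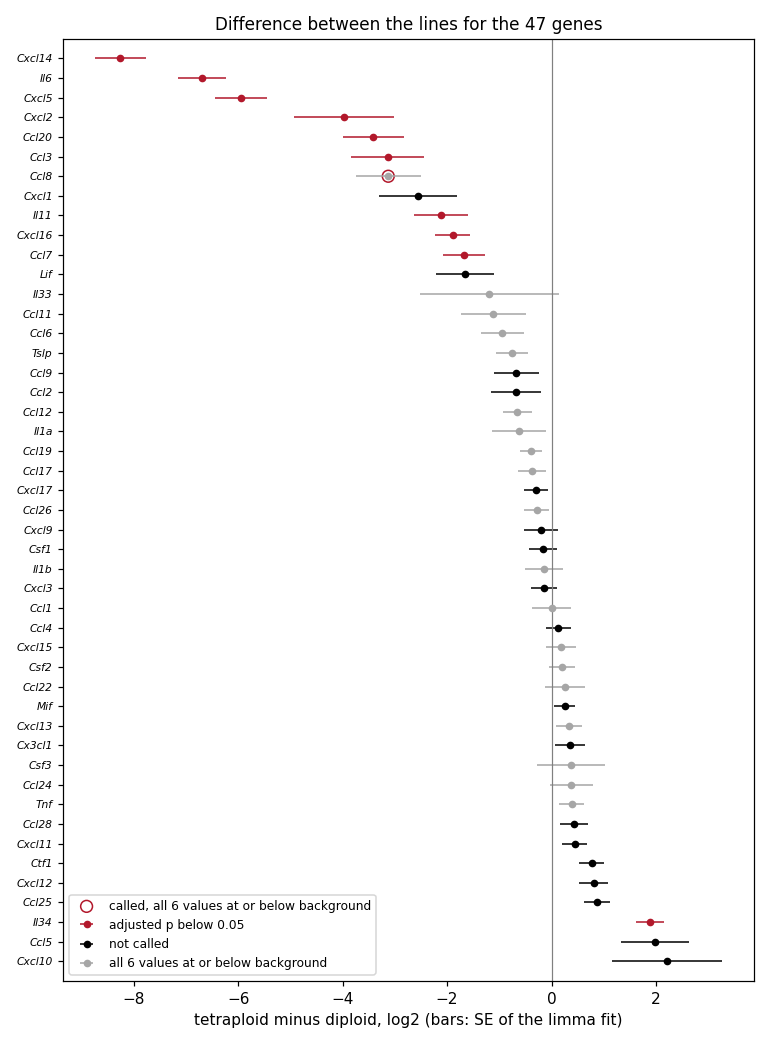
Difference between the lines for each of the 47 genes (tetraploid minus diploid, log2; bars give the SE of the limma fit), ordered from the lowest to the highest. Red points were called, grey points had all 6 values at or below background, and the ring marks Ccl8, called with all 6 values there; Cxcl14 lies furthest left at -8.25.

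The CXC chemokine that differed most was Cxcl14, a chemokine made by fibroblasts and epithelia that attracts monocytes and dendritic cells. It stood at 3.73, 2.16 and 4.04 on tetraploid arrays 1 to 3, against 11.25, 11.82 and 11.62 on diploid arrays 1 to 3. All tetraploid values were below background and all diploid values far above it. The fall was at least 19.4-fold (adjusted p = 0.000421) and was called without any 1 array (adjusted p 0.000373 to 0.00463). Cxcl16, a membrane-bound ligand of the receptor CXCR6, stood at 7.15, 5.87 and 6.46 in the tetraploid line, against 8.20, 8.49 and 8.48 in the diploid line. It was at least 2.14-fold lower (adjusted p = 0.0152), and its call ended without diploid array 2 (0.0634) or 3 (0.0572).

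The attractants of neutrophils that act through the receptor CXCR2 include Cxcl1, Cxcl2, Cxcl3 and Cxcl5, whose genes lie close together on chromosome 5. Cxcl2 and Cxcl5 were called and Cxcl1 and Cxcl3 were not; whether their differences differ from each other was not tested. Cxcl5 stood at 0.04, 1.81 and 1.56 in the tetraploid line, against 6.68, 6.96 and 7.59 in the diploid line. The difference of -5.94 ± 0.49 (SE; adjusted p = 0.00116) was called without any 1 array. Only diploid array 3 exceeded background. With values raised to background the fall was 1.05-fold, which is no lower bound because the other diploid values were raised too. Cxcl2 stood at 3.41, 0.03 and 2.05 in the tetraploid line, against 4.44, 5.85 and 7.11 in the diploid line. It was called (difference -3.97 ± 0.96, adjusted p = 0.0382), although 5 of its 6 values were below background and no fold is given. Its call ended without diploid array 2 (adjusted p = 0.110) or 3 (0.112) and without tetraploid array 2 (0.0831) or 3 (0.0849).

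Cxcl1 was below background on all tetraploid arrays, at 6.58, 4.07 and 7.17, and above it on all diploid arrays, at 8.49, 8.19 and 8.81. The values did not overlap, but tetraploid array 2 lay far below the other two and the difference of -2.56 ± 0.75 did not pass (adjusted p = 0.0669). It passed without that array (0.0349), without tetraploid array 3 (0.0480) and with values raised to background (0.000866; at least 2.31-fold lower). Cxcl3 lay near background in both lines, at 7.19, 7.41 and 7.88 in the tetraploid line, against 7.46, 7.84 and 7.61 in the diploid line (difference -0.14 ± 0.25, adjusted p = 0.757).

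Cxcl12, which binds CXCR4 and holds blood-forming and immune cells in tissue, was strongly expressed by both lines. It stood at 12.11, 12.52 and 12.81 in the tetraploid line, against 11.73, 12.01 and 11.29 in the diploid line, and every tetraploid value was the higher. The difference of 0.81 ± 0.28 (1.75-fold) did not pass in the fit to the deposited values (adjusted p = 0.108) but passed with values raised to background (0.0282). Raising changed none of the Cxcl12 values, so the lower adjusted p came from changes in the other genes of the fit. Cx3cl1, a membrane-bound chemokine that also tethers leukocytes, stood at 10.05, 9.53 and 9.06 against 9.18, 9.06 and 9.35 in the diploid line, and the lines overlapped (difference 0.35 ± 0.28, adjusted p = 0.473). Cxcl17, a mucosal chemokine, lay at background in the tetraploid line (7.30, 7.14 and 7.09) and just above it in the diploid line (7.81, 7.39 and 7.22), with a difference of -0.30 ± 0.23 (adjusted p = 0.434).

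Among the CC chemokines 4 fell (21.1%, beside 7.75% of all genes) and 15 did not pass. Ccl7, which recruits monocytes, was the only called gene of the 47 above background on all 6 arrays. It stood at 8.78, 8.04 and 9.64 in the tetraploid line, against 10.25, 10.52 and 10.72 in the diploid line, with no overlap. It was 3.20-fold lower (difference -1.68 ± 0.41, adjusted p = 0.0381), and its call held only without tetraploid array 3 (adjusted p = 0.0165) among the fits that left out 1 array (0.0722 to 0.118 in the other five). Its neighbour on chromosome 11, Ccl2, another monocyte attractant, stood at 9.19, 7.46 and 8.85 against 9.09, 8.79 and 9.66 in the diploid line. Tetraploid array 2 was again the lowest, the lines overlapped, and the difference of -0.68 ± 0.48 did not pass (adjusted p = 0.402). Whether the 2 neighbours differ in their response was not tested.

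The other CC falls were measured at or near background. Ccl20, which attracts cells bearing CCR6, stood at 4.16, 2.48 and 4.39 in the tetraploid line, against 7.74, 6.25 and 7.27 in the diploid line (adjusted p = 0.0138), and 2 diploid values exceeded background. With values raised to background the fall was 1.10-fold, which is no lower bound because diploid array 2 was raised too. The call ended without diploid array 3 (0.0517). Ccl3, a chemokine mainly of macrophages, stood at 3.35, 2.99 and 3.55 against 4.70, 6.99 and 7.61 in the diploid line, where array 1 lay well below the other two. It was called (adjusted p = 0.0304). With values raised to background it was 1.05-fold lower, which is no lower bound because diploid arrays 1 and 2 were raised too. The call held without diploid array 1 (0.00395) but ended in every other fit that left out 1 array (0.0677 to 0.104).

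Ccl8 stood at 0.04, 1.28 and 2.43 against 4.89, 4.65 and 3.60 in the diploid line, so its call (adjusted p = 0.0216) compares values that were all below background. It ended without diploid array 1 (0.0737) or 2 (0.0783) or tetraploid array 2 (0.0660). Ccl28, known from mucosal epithelium, lay just above background in both lines, at 7.84, 7.998 and 7.94 against 7.45, 7.99 and 7.06 in the diploid line (difference 0.43 ± 0.27, adjusted p = 0.353).

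**Figure D2:**
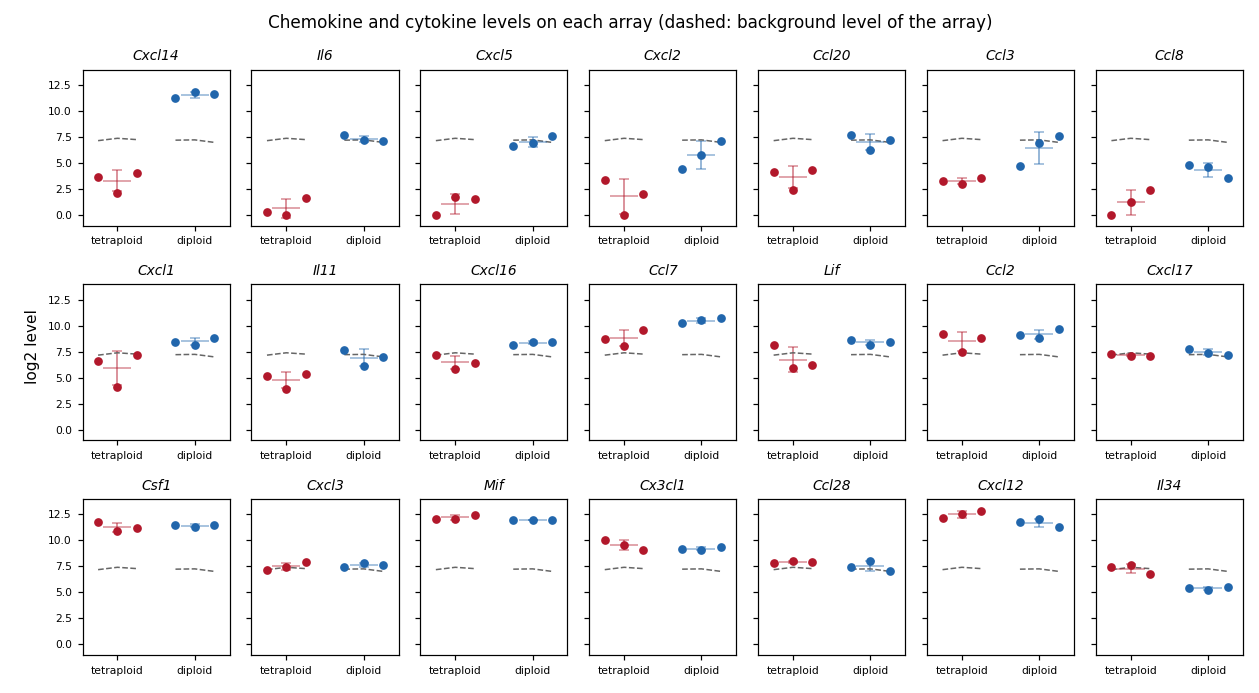
Log2 levels of 21 genes on the 3 tetraploid arrays (red, left in each panel) and the 3 diploid arrays (blue, right), with mean and SD as bars and the background level of each array as a dashed line. The panels run from the lowest to the highest difference; Il6 and Cxcl5 sit close to the dashed line in the diploid line and near 0 in the tetraploid line.

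Among the cytokines, 2 of 14 fell (Il6 and Il11) and 1 rose (Il34), and the lowest differences were those of Il6, Il11 and Lif. The shares, 14.3% and 7.14%, stand beside 7.75% and 6.08% of all genes. Il6 stood at 0.29, 0.00 and 1.72 in the tetraploid line, with arrays 1 and 2 near 0, against 7.71, 7.26 and 7.12 in the diploid line. The difference was -6.69 ± 0.46 (adjusted p = 0.000718, called without any 1 array). The diploid values were above background by a narrow margin. With values raised to background the fall was at least 1.05-fold and did not pass (adjusted p = 0.740). Il11, a relative of IL-6 made by fibroblasts, stood at 5.14, 3.93 and 5.40 against 7.72, 6.10 and 7.005 in the diploid line. It was called (adjusted p = 0.0401), and only diploid array 1 exceeded background. Among the fits without 1 array, the call held without diploid array 2 (0.0478) and ended in the other five (0.0547 to 0.114).

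Lif, which signals through the LIF receptor and gp130, stood at 8.11, 5.95 and 6.22 against 8.68, 8.17 and 8.40 in the diploid line. Tetraploid array 1 lay close to the diploid values and the other two below background. The difference of -1.66 ± 0.55 did not pass (adjusted p = 0.0967) but passed without tetraploid array 1 (0.00681) and with values raised to background (0.0282). Ctf1, singled out after its values were seen, went the other way without passing, at 6.96, 7.71 and 7.33 against 6.48, 6.56 and 6.67 in the diploid line (difference 0.77 ± 0.24, adjusted p = 0.0832). It passed without tetraploid array 1 (0.0429).

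The ligands of the macrophage receptor CSF1R were Csf1 and Il34. Il34 was the 1 gene that rose, at 7.46, 7.60 and 6.77 in the tetraploid line, against 5.41, 5.22 and 5.53 in the diploid line (difference 1.89 ± 0.27, adjusted p = 0.00751, called without any 1 array). Only tetraploid arrays 1 and 2 exceeded background. With values raised to background the rise was 1.21-fold, which is no lower bound because tetraploid array 3 was raised too. Csf1, well above background, stood at 11.73, 10.86 and 11.17 against 11.47, 11.26 and 11.51 in the diploid line, and the lines overlapped (difference -0.16 ± 0.27, adjusted p = 0.743).

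Mif, a constitutively made cytokine, stood at 12.08, 12.07 and 12.46 against 11.97, 11.97 and 11.90 in the diploid line, with a difference of 0.25 ± 0.20 (adjusted p = 0.460). Its 3 probe sets gave differences of 0.21 to 0.25; the mouse genome holds near-identical copies of this gene, so which copy was measured is uncertain.

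The remaining 26 genes gave no call (adjusted p 0.0625 to 0.994). Of these, 18 lay at or below background on all 6 arrays: Ccl1, Ccl6, Ccl11, Ccl12, Ccl17, Ccl19, Ccl22, Ccl24, Ccl26, Cxcl13, Cxcl15, Csf2, Csf3, Il1a, Il1b, Il33, Tnf and Tslp, with differences from -1.19 to 0.38. The upstream inducers of many chemokines, Tnf, Il1a and Il1b, were among them. The other eight (Ccl4, Ccl5, Ccl9, Ccl25, Cxcl9, Cxcl10, Cxcl11 and Ctf1) exceeded background on 1 to 3 arrays.

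Ccl5 and Cxcl10, which are induced by interferon and viral RNA, were singled out after their values were seen because their values differed widely among arrays of the same line. Cxcl10 stood at 8.04, 3.90 and 5.30 in the tetraploid line, against 3.03, 2.76 and 4.81 in the diploid line, and its only value above background was tetraploid array 1 (difference 2.21 ± 1.05, adjusted p = 0.216). Ccl5 stood at 8.64, 7.87 and 6.89 against 4.90, 5.48 and 7.08 in the diploid line. The lines overlapped, with diploid array 3 above tetraploid array 3 (difference 1.98 ± 0.65, adjusted p = 0.0901, and 0.0469 without diploid array 3). Cxcl9 and Cxcl11, which share the receptor CXCR3 with Cxcl10, had differences of -0.20 and 0.45 (adjusted p 0.747 and 0.271).

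**Figure D3:**
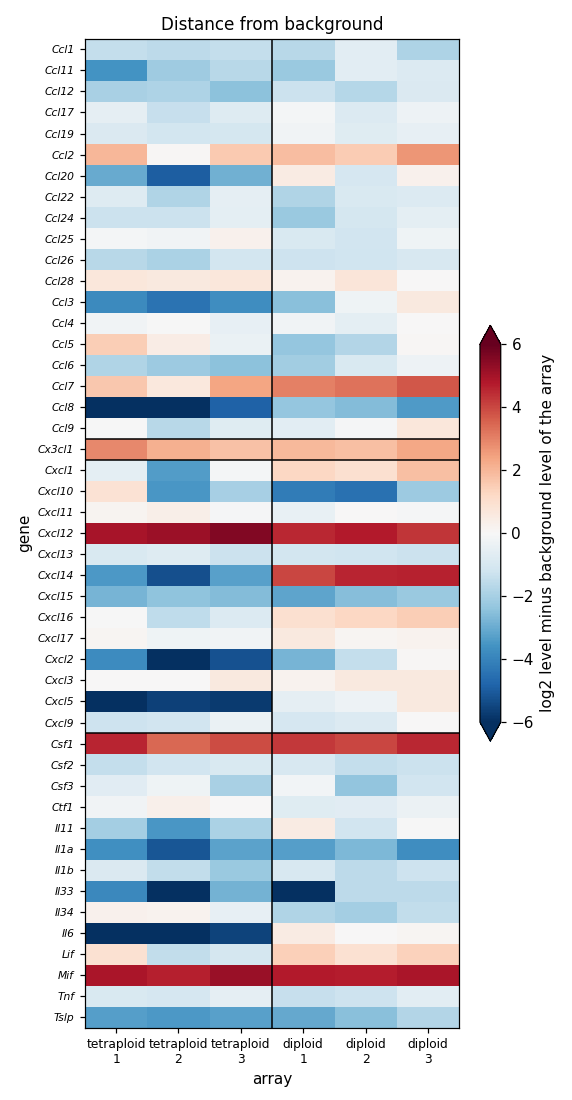
Log2 level minus the background level of the array for all 47 genes (rows, by family: CC, CX3C, CXC and cytokines) on the tetraploid arrays (left) and the diploid arrays (right); red is above and blue below background, and the colours end at 6 on either side. Cxcl12, Csf1 and Mif are red on all 6 arrays, and Cxcl14 is red on the diploid arrays and blue on the tetraploid arrays.

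Samples of the tetraploid line varied more. The SD over the 3 tetraploid arrays was the larger in 16 of the 21 genes given with values by rule, and in 30 of all 47 (63.8%, beside 64.7% of all genes). Tetraploid array 2 held the lowest tetraploid value in 13 of these 21 genes (61.9%), among them Cxcl1, Cxcl2, Cxcl14, Cxcl16, Ccl2, Ccl7, Ccl20, Il6, Il11 and Lif, and in 19 of all 47 (40.4%), beside 31.1% of all genes.

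Macrophage marker levels varied between the arrays as well. The mean of 14 macrophage markers was 4.28, 4.41 and 4.12 on tetraploid arrays 1 to 3, against 5.16, 6.31 and 7.08 on diploid arrays 1 to 3, and their summed log2 level ranged from 57.7 to 61.8 on tetraploid arrays, against 72.2 to 99.1 on diploid arrays. Between 0 and 1 of the markers exceeded background on the tetraploid arrays, against 1, 3 and 7 on diploid arrays 1 to 3. Lyz2, Mrc1 and Cd53 fell (21.4%, beside 7.75% of all genes) and the other 11 did not pass, and Lyz2 reached 9.32 and 9.98 on diploid arrays 2 and 3. Of the 14 markers, 7 lay at or below background on all 6 arrays, and 0 were called with values raised to background. Of the defining markers, Ptprc, Adgre1 and Itgam were below background on all 6 arrays, with Adgre1 at 0 on tetraploid array 1. The fourth, Csf1r, stood at 6.65, 8.55 and 5.61 in the tetraploid line, against 6.16, 6.53 and 7.57 in the diploid line, and exceeded background on tetraploid array 2 and diploid array 3.

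Ccl3, Ccl7, Cxcl2 and Cxcl5 among the 10 falls were, like the macrophage mean, lowest on diploid array 1 and highest on diploid array 3, and so were 13 of the 47 genes (27.7%, beside 19.3% of all genes). Il6 and Cxcl14 were not: Il6 was highest on diploid array 1 and Cxcl14 on diploid array 2. The part of macrophage RNA in the differences of Ccl3, Ccl7, Cxcl2 and Cxcl5 was not tested. Among markers of other cell types, 2 of 7 endothelial genes (Kdr and Emcn; 28.6%) and 1 of 7 epithelial genes (Krt18; 14.3%) fell, beside 7.75% of all genes. Of the 7 endothelial genes, 5 lay at or below background on all 6 arrays. Lymphocyte and granulocyte markers gave no calls (limma; 0 of 8 in each list, also at an unadjusted p below 0.05). The part of these cell types, and of the lower fibroblast markers, in the differences was not tested.

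**Figure D4:**
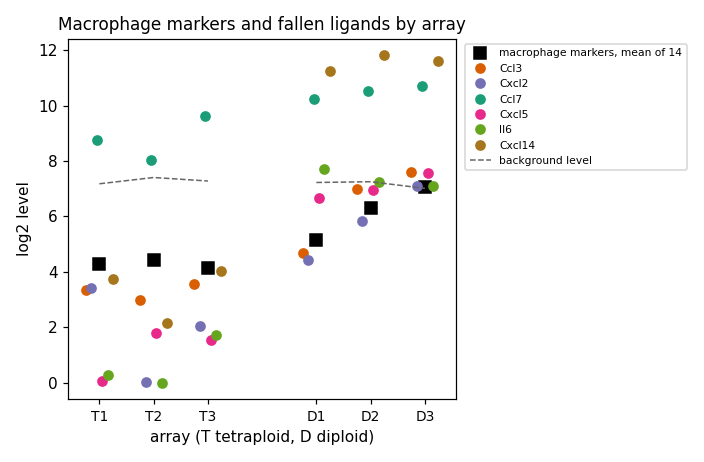
Log2 level on each array (tetraploid T1 to T3 left, diploid D1 to D3 right) of the macrophage marker mean (black squares) and of 6 genes that fell (coloured points, set side by side for legibility), with the background level dashed. The squares lie between 4.12 and 4.41 on the tetraploid arrays and at 5.16, 6.31 and 7.08 on the diploid arrays.

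Promoter sequences are shown for genes that were lower in the tetraploid line or, for Cxcl1, below background in it, to show where they hold the kB motif, the letters bound by NF-kB, and where they do not. RefSeq windows of GRCm38.p6, from 250 bases before to 50 after the start of transcription, were matched for 33 of the 47 genes. Each stretch below holds the 150 bases before the start, 5′ to 3′ on the strand of the gene, with capitals marking matches to the kB letters (GGG, any 3 bases, TTCC) on either strand, to the AP-1 letters TGANTCA or to TATAAA.
Il6 (chr5:30012964-30013113, plus strand): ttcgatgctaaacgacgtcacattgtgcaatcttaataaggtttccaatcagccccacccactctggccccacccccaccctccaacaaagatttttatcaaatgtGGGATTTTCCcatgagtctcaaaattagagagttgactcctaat
Cxcl1 (chr5:90891095-90891244, plus strand): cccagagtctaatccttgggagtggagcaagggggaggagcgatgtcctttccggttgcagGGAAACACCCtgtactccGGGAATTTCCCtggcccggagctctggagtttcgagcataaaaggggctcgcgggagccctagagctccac
Cxcl2 (chr5:90903749-90903898, plus strand): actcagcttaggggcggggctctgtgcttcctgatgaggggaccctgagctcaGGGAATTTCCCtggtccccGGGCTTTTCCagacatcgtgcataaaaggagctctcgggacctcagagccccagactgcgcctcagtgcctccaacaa
Ccl20 (chr1:83116616-83116765, plus strand): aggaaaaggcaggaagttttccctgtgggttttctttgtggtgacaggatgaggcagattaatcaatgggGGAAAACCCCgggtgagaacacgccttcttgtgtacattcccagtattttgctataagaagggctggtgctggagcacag
Cxcl14 (chr13:56296552-56296701, minus strand): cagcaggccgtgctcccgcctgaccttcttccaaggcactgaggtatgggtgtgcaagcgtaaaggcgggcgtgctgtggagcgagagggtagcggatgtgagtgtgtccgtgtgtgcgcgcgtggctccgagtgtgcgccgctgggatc

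Over the whole windows, the kB letters were found in 9 of the 33 genes (27.3%), namely Il6, Cxcl1, Cxcl2, Cxcl3, Cxcl10, Ccl1, Ccl9, Ccl20 and Csf1, and in 5.56% of all 32851 promoter windows. Windows were matched for 7 of the 10 genes that fell, and 3 of these (Il6, Cxcl2 and Ccl20) held them. The nearest match lay 44 bases before the start in Il6, 70 in Cxcl1, 78 in Cxcl2 and 80 in Ccl20, counted from the outer base of the match, and matches on opposite strands overlap in Cxcl1 and Cxcl2. Cxcl3 and Csf1, which hold the same letters, did not pass the test. The AP-1 letters were found in 8 of the 33 (24.2%, and in 7.81% of all windows), namely Il6, Il11, Lif, Il1a, Ccl9, Ccl28, Cxcl9 and Cxcl10. Of the 7 genes that fell and had a matched window, 2 (Il6 and Il11) held the AP-1 letters. TATAAA was found on the same strand in 13 of the 33 (39.4%, and in 8.32%), and the GC box GGGCGG on either strand in 10 (30.3%, and in 35.7%). The printed stretch of Cxcl14 holds none of the capitalised letters. Shares of the 33 genes are per gene, counted if any of their 36 windows matched for that gene, whereas shares of all windows are per window. A match is a description of the sequence and shows no binding.

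Receptors were the next question. Of 23 measured chemokine receptor genes 2 fell (8.7%, near the 7.75% of all genes) and 21 did not pass, and 19 lay at or below background on all 6 arrays. Cmklr1, the receptor of chemerin, stood at 4.98, 5.44 and 4.84 in the tetraploid line, against 8.24, 8.16 and 8.76 in the diploid line (at least 2.14-fold lower, adjusted p = 0.00106). Cxcr4, the receptor of Cxcl12, stood at 4.11, 4.12 and 2.88 against 6.04, 5.72 and 6.90 in the diploid line, so its call (adjusted p = 0.0148) compares values below background. Ackr3, the scavenging receptor of Cxcl12, was above background on all 6 arrays and did not pass (difference -0.35 ± 0.29, adjusted p = 0.489). Among other receptors of the ligands above, Ccr1, Ccr2, Ccr3, Ccr6, Cxcr1, Cxcr2, Cxcr3, Cxcr6 and Cx3cr1 were below background on all 6 arrays. Ccr10, a receptor of Ccl28, was above it on all 6, at 7.26, 7.72 and 7.54 in the tetraploid line, against 7.42, 7.53 and 7.12 in the diploid line (adjusted p = 0.711).

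Of 18 cytokine receptor genes 2 rose (11.1%, beside 6.08% of all genes), 4 fell (22.2%, beside 7.75%) and 12 did not pass. Il6st stood at 12.18, 11.67 and 12.64 in the tetraploid line, against 11.54, 11.76 and 11.66 in the diploid line (difference 0.51 ± 0.28, adjusted p = 0.280), and Il6ra overlapped between the lines (0.51 ± 0.30, adjusted p = 0.316). Csf1r, the receptor of Csf1 and Il34, overlapped too (0.18 ± 0.75, adjusted p = 0.905). Lifr, at 9.22, 9.93 and 10.04 against 8.59, 8.52 and 8.96 in the diploid line, narrowly missed the threshold (adjusted p = 0.0525). With values raised to background its adjusted p was 0.00783, although raising changed none of the Lifr values. The TNF receptor gene Tnfrsf1b rose 2.71-fold (adjusted p = 0.0335). Its diploid arrays 1 and 2 were below background, and its difference of 1.44 was 1.12 with values raised to background. Crlf2, a chain of the TSLP receptor, fell at least 1.38-fold (adjusted p = 0.0280, and 0.153 with values raised to background). Cd44, which joins Cd74 in binding MIF, fell 2.12-fold (adjusted p = 0.0444). Cd74 itself rose, at 5.47, 6.84 and 6.08 in the tetraploid line, against 3.78, 1.54 and 2.90 in the diploid line, all below background (adjusted p = 0.0151; 0.0509 without tetraploid array 2). The calls of the other three ended in most fits without 1 array: Tnfrsf1b held only without tetraploid array 3 (0.0240), Crlf2 only without tetraploid array 1 (0.0310) or 2 (0.0333), and Cd44 only without tetraploid array 1 (0.0139).

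Of 51 related cytokines outside the rule, 3 rose, 5 fell and 43 did not pass. The share called, 15.7%, was near the 13.8% of all genes, and 32 lay at or below background on all 6 arrays. Clcf1, another gp130 cytokine, stood at 8.09, 8.47 and 7.89 in the tetraploid line, against 6.71, 6.58 and 6.91 in the diploid line (at least 1.98-fold higher, adjusted p = 0.0114; 0.0580 without diploid array 2). Kitl, the ligand of the KIT receptor, was 2.94-fold higher (adjusted p = 0.0240), and without 1 array its call held only when diploid array 3 was left out (0.0174). Tnfsf15, of the TNF family, was at least 1.29-fold lower (adjusted p = 0.00431, and 0.243 with values raised to background).

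Of 45 signalling genes of the NF-kB and AP-1 pathways 4 rose (8.89%, beside 6.08% of all genes), 6 fell (13.3%, beside 7.75%) and 35 did not pass (median difference 0.11). The AP-1 gene Fos stood at 7.80, 8.05 and 8.10 in the tetraploid line, against 11.03, 11.26 and 10.70 in the diploid line (8.08-fold lower, adjusted p = 0.000895), and Fosb fell 7.37-fold (0.00230). Fosb was below background on tetraploid array 2, and its difference of -2.88 was -2.73 with values raised to background. Atf3 fell at least 1.72-fold (0.0495), and Zfp36, whose product destabilises cytokine mRNA, 2.74-fold (0.0235). Tlr4, the receptor of bacterial lipopolysaccharide, fell at least 1.44-fold (0.0113). Tlr2, which senses bacterial lipoproteins, rose 4.39-fold (0.0141), Tab1 2.31-fold (0.0113) and the NF-kB subunit gene Nfkb2 2.05-fold (0.0302). Diploid arrays 1 and 2 were below background for Tlr2 and Tab1. Their differences of 2.13 and 1.21 were 1.81 and 0.96 with values raised to background.

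In fits without 1 array, Fos, Fosb and Tlr4 were called in all 6. Tlr2 lost its call without diploid array 2 (0.0594), Tab1 without diploid array 1 (0.0522) or 2 (0.0557), and Atf3, Zfp36 and Nfkb2 in 5, 5 and 4 of the 6. Of 17 JAK and STAT genes limma called 0, with 5 at an unadjusted p below 0.05.

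Of 20 decoy and processing genes 1 rose, 4 fell and 15 did not pass (median difference -0.64). The shares were 5% and 20%, beside 6.08% and 7.75% of all genes. Tnfrsf11b, the decoy receptor osteoprotegerin, stood at 7.39, 5.67 and 5.05 in the tetraploid line, against 10.61, 10.33 and 10.11 in the diploid line (difference -4.31, adjusted p = 0.00586). Tetraploid arrays 2 and 3 were below background, and with values raised to it the difference was -2.99. Tnfaip6, which binds hyaluronan and chemokines, rose 3.07-fold (0.0102). The heparan sulfate enzyme gene Hs3st1 fell at least 1.83-fold (0.000573), the gelatinase gene Mmp2 1.97-fold (0.0233) and the surface protease gene Fap at least 4.09-fold (8.33e-06). The call of Mmp2 ended without any 1 diploid array (0.0633 to 0.0980).

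**Figure D5:**
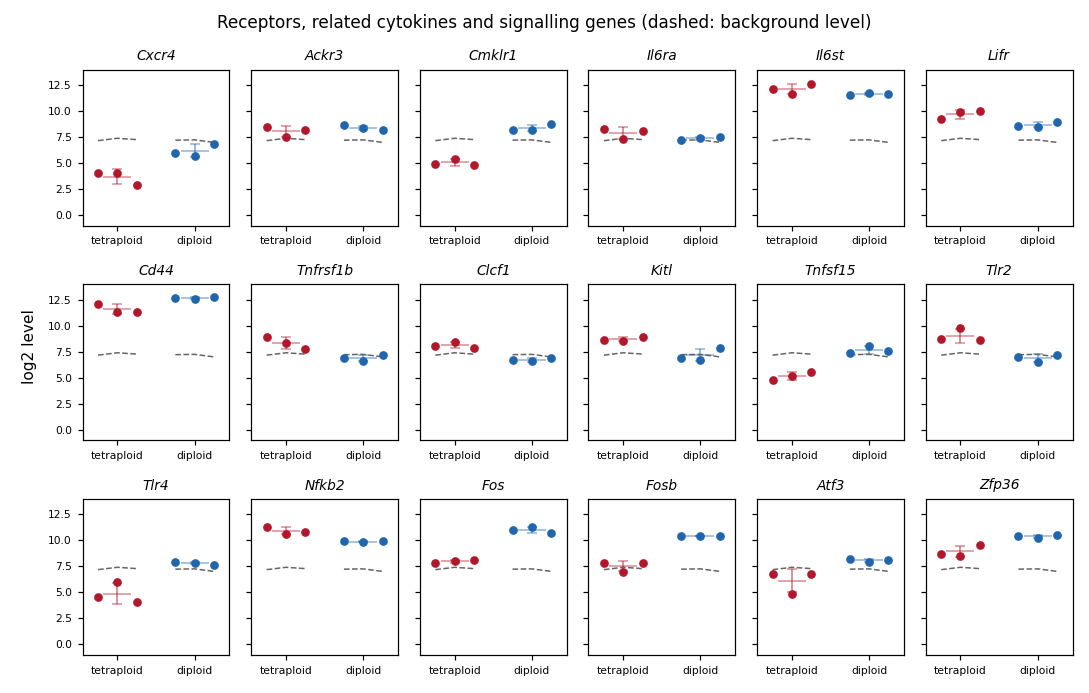
Log2 levels of receptors, related cytokines and signalling genes on the 3 tetraploid arrays (red, left in each panel) and the 3 diploid arrays (blue, right), with mean and SD as bars and background dashed. Fos and Fosb lie lower in the tetraploid line and Tlr2 higher, while Il6st overlaps between the lines.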

How the data were processed

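Levels were measured on Affymetrix whole-transcript arrays, 3 samples of each line. The deposited values are log2 levels per probe set; per the submitters' processing notes they were made with Affymetrix Expression Console, and their algorithm and normalization are not given in the sources used here. On this basis the log2 scale was checked on the deposited values. Array medians lay between 7.24 and 7.28, and the values were used as deposited. Of 28944 probe sets, 21789 carried 1 symbol in the platform annotation, and the one with the highest mean was kept for each of 19939 genes. Arrays give no counts, so their number limits the precision.

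The test was limma 3.58.1 under R 4.3.3 (a linear model with eBayes moderation, two-sided, Benjamini-Hochberg over all genes), tested first on simulated data, and called at an adjusted p below 0.05. An adjusted p printed for a gene comes from this fit unless another is named. An exact permutation test of 3 against 3 cannot go below 0.1. Where 1 line had no array above background, folds were computed with values raised to background. They are lower bounds, given as at least, only where the other line was above background on all its arrays. Where neither line had an array above background, or raising turned the sign, no fold is given. With values raised, a gene below background on all arrays takes the background's own difference of 0.12 (adjusted p = 0.463).

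Genes above background on all arrays of a line, or called, were given with their values, and from other lists the called genes above background in a line, at most 8 a list, besides receptors of the named ligands. Genes, lists and rules were chosen with earlier results of these data known. Alternatives were quantile normalization, raised values, a filter on low values, 32 added on the linear scale, the mean of all probe sets, an intensity trend, the replicate number as a block, and leaving out each array. Promoter sequences are from RefSeq. Proteins were not used here.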

Additional observations from a re-analysis of the deposited data

How the results depend on the processing

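The count of called chemokine and cytokine genes, 11, was 6 with values raised to background, and the count above background in a line, 14, was 7 with the 99th percentile of olfactory receptor genes. With values raised to background, 26 of 82 signalling and decoy genes were called in place of 15, 4 of 41 receptors in place of 8 and 2 of 51 other cytokines in place of 8. Over all genes, 3947 were called in place of 2758. With only genes above background on at least 3 arrays tested, fewer genes entered the fit. It called 25 of 70 signalling and decoy genes, 5 of 13 receptors and 3 of 15 other cytokines. Among the 47 genes, 16 were tested and 8 called, and over all genes 3476 of 11216 were called. Signalling and decoy calls numbered 26 with 32 added and 27 with an intensity trend. In these 2 fits, 16 and 15 of the 47 genes were called, and 3972 and 4015 of all genes in place of 2758. Leaving out 1 array gave 6 to 10 calls among the 47 genes, 5 to 7 among other cytokines, 4 to 8 among receptors, 7 to 18 among signalling and decoy genes, and 839 to 2522 over all genes, against 2758 from all arrays. Raising values turned the differences of Ccl8 and Cxcl2 to 0.12 and 0.0933, by construction, since nearly all their values lie below background. Other causes were not tested. Nothing in the labels pairs the replicate numbers, and deviations of same-numbered arrays correlated at 0.1003, 0.0308 and -0.0461; with the replicate block 10 of the 47 genes, 7 other cytokines, 6 receptors, 11 signalling and decoy genes and 1647 of all genes were called. Quantile normalization and the mean of all probe sets left the direction and call of each of the 21 genes given with values as they were. Cxcl1, Cxcl12 and Lif passed the test with 32 added, with an intensity trend, with the filter on low values and with raised values. The trend and the filter, and for Cxcl12 also raising, left the values of these genes unchanged. With the replicate block Cxcl1 passed, and Ccl8 and Cxcl2 did not.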

Other observations

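Some chemokine probe sets carry several gene symbols and stayed outside the comparison. The 4 probe sets of the Ccl21 genes had equal values on every array to 2 decimals, at 6.33, 6.89 and 6.35 on tetraploid arrays 1 to 3, against 6.88, 6.30 and 6.27 on diploid arrays 1 to 3, all below background. Of the 3 probe sets shared by Ccl27a and Ccl27b, the brightest stood at 7.85, 5.56 and 7.24 in the tetraploid line, against 5.99, 6.65 and 6.72 in the diploid line, and its tetraploid array 1 was its only value above background. The 5 single-gene probe sets of Ccl19 gave differences from -0.48 to -0.39, and the 2 of Ccl25 gave 0.75 and 0.87.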
